A study of Mus musculus with 2 samples.

Results

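Open CpG-poor promoters are the DNase I peaks at starts of protein-coding genes that lie outside any stretch of dense CpG. They were chosen by position and sequence alone: the peak is centred no more than 500 bp from a transcription start site (TSS) that GENCODE M21 gives to a protein-coding gene, while the ratio of observed to expected CpG dinucleotides stays below 0.4 in the 1 kb around every such TSS within 1 kb of the peak centre. The rule holds for 5098 of the 30697 TSS peaks of replicate 1 and for 4835 of the 29895 of replicate 2, which is 16.6% and 16.2% of them, out of 208674 and 196593 peaks in all. The other TSS peaks were split by the same ratio into intermediate (from 0.4, 4947 and 4518 peaks) and CpG-rich (from 0.6, 20652 and 20542 peaks).

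The data are DNase-seq maps of whole limbs of mouse embryos of strain B6NCrl at an age of 14.5 days, males and females pooled, with no treatment named. There is 1 group of 2 libraries called biological replicates, which carry the same donor identifier, so that whether they stem from separate embryos is not settled. For each library the authors deposited peaks of 150 bp, all placed on a grid of 20 bp, with a whole-number signal per peak in a unit of their own. Whole limb mixes many cell types, and a weak peak in all cells cannot be told apart from a strong peak in few cells.

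Most mouse promoters sit in CpG islands, which are kept free of DNA methylation and are open in nearly every cell type. Promoters without an island are usually methylated when silent, depend more on factors bound to DNA nearby, and serve many genes of differentiated cells, such as those of muscle, skin, matrix, blood and liver. DNase I cuts DNA that is not wrapped in a nucleosome, so a peak marks a stretch where proteins have displaced one.

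The sequences of some recurrent peaks are shown because they hold the short motifs counted further on, or, for Ephb3, none of those marked. Each is the part of the peak before the nearest TSS, outside every annotated exon, read on the strand of the gene from the mm10 genome. Capitals mark matches of the motifs searched, on either strand, leaving out the short words of the ETS core, TEAD, CACC box, SOX and homeodomain, and positions are those of the first base relative to the TSS. The first 4 belong to strong peaks of the class: Angptl2 (chr2:33215876-33216025, plus strand), Tldc1 (chr8:119778417-119778545, minus strand), Amigo3 (chr9:108052976-108053125, plus strand) and Ephb3 (chr16:21210956-21211094, plus strand). Gli2 (chr1:118982589-118982685, minus strand) is an internal, CpG-poor start of a gene with a CpG-rich one. The others come from genes of limb tissues and blood: Tpm2 (chr4:43520076-43520225, minus strand), Cldn4 (chr5:134946956-134947105, minus strand), Ogn (chr13:49607856-49608005, plus strand), Lmod1 (chr1:135324616-135324765, plus strand), Myh11 (chr16:14291373-14291505, minus strand) and Epor (chr9:21963507-21963645, minus strand).
Angptl2: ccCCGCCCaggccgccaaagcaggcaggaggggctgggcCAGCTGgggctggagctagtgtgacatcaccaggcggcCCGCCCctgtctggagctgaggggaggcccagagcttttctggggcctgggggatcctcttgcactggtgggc
Tldc1: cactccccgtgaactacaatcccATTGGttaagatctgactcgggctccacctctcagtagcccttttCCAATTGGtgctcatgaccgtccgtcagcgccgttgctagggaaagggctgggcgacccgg
Amigo3: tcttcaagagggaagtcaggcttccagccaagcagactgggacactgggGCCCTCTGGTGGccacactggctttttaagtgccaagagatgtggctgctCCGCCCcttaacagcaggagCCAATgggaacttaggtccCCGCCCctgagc
Ephb3: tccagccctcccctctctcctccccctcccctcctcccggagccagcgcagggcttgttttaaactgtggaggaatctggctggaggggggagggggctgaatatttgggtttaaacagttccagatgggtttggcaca
Gli2: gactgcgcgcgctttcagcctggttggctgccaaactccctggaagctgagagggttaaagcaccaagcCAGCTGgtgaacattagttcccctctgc
Tpm2: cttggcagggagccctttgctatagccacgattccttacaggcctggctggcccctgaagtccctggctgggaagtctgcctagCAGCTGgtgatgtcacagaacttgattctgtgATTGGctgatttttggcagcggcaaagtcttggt
Cldn4: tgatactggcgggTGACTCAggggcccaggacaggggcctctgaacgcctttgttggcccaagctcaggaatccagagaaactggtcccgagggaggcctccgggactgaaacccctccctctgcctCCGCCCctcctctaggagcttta
Ogn: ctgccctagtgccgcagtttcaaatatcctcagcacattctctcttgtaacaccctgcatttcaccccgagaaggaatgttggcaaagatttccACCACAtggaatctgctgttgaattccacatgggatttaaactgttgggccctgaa
Lmod1: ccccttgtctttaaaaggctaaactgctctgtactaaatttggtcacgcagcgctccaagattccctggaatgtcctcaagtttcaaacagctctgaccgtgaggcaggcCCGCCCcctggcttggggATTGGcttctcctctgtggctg
Myh11: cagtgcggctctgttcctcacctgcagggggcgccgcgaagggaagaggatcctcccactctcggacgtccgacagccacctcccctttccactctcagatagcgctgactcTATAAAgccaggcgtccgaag
Epor: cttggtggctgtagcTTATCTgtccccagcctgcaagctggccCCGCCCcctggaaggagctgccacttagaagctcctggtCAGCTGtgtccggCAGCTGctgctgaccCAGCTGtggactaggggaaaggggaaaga
Myh11 has a TATA box at -21. Tldc1 has CCAAT boxes at -106, -61 and -58, of which the last 2 overlap on opposite strands. Amigo3 combines a CTCF core at -134 with GC boxes at -84 and -45 and a CCAAT box at -64. Epor, the erythropoietin receptor of red cell precursors, holds a GATA motif at -124, a GC box at -96 and CAGCTG E-boxes at -57, -44 and -29.

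The strongest open CpG-poor promoters lay near the top of both peak lists, though below the highest signals of CpG-rich promoters, and belonged to genes of varied function. Lgals1, the gene of the sugar-binding protein galectin-1, had signals of 125 (replicate 1) and 123 (replicate 2). These values exceed 97.6% and 99.8% of the peaks of each list when ties are counted by mean rank, a position called the signal percentile from here on. Ephb3, a receptor tyrosine kinase for ephrin-B ligands, had 131 and 117 (percentiles 98.6 and 99.3); paired values are given for replicate 1 and then replicate 2 from here on. Myadm, a membrane protein, had 134 and 106, and Angptl2, a secreted relative of the angiopoietins, had 124 and 118. Trpm5, a cation channel known from taste cells, had 128 and 113 at a peak without a single CpG. The lowest percentile among these 5 genes was 97.4, at Angptl2 in replicate 1.

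The other 7 of the 12 highest by mean percentile were also near the top of both lists. Kdm2a, a histone demethylase, had 126 and 116, and Ptpa, an activator of protein phosphatase 2A, had 130 and 109. Amigo3, a transmembrane protein with leucine-rich repeats, had 131 and 107 at a peak that also lies at a TSS of the ubiquitin ligase gene Rnf123. Fggy, a carbohydrate kinase, had 132 and 105. Mterf2, a mitochondrial transcription factor, had 126 and 113, Tldc1 129 and 108, and Grn, which encodes progranulin, 125 and 114. The hotspots beneath all 12 reached the ceiling of 100 on the −log10 q scale in both replicates. The highest signal of any CpG-poor promoter was 134 in replicate 1 and 123 in replicate 2, against 148 and 143 at CpG-rich ones.

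As a class, CpG-poor promoters carried the signal of an ordinary peak. Their median signal was 44 in replicate 1 and 33 in replicate 2, against 61 and 46 at intermediate and 89 and 62 at CpG-rich promoters, and 42 and 31 over all peaks. The median percentile was 54.7 ± 0.34 at CpG-poor, 75.1 ± 0.873 at intermediate and 88.8 ± 1.4 at CpG-rich promoters (SD, n = 2 replicates each). The gaps between the classes are thus many times the spread between replicates, though with 2 replicates an exact permutation test of paired values cannot go below p = 0.5 and none was used. Of the CpG-poor promoters 9.45% and 10.7% were in the top 10% of the list, about the portion of all peaks (10% and 10.1%), against 49.8% and 46.8% of the CpG-rich ones. Their hotspots were also narrower, with median widths of 280 and 243 bp, against 1190 and 741 bp at CpG-rich promoters. They reached the ceiling of 100 in 43.3% and 35.5% of cases, against 84.7% and 74.1% at CpG-rich promoters.

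Signal and openness both climbed with CpG content, and the limit of 0.4 falls on a slope. TSS peaks with a ratio under 0.1 had a median percentile of 35.6 in replicate 1 and 35.5 in replicate 2, those from 0.1 to 0.2 had 49.0 and 50.1, those from 0.2 to 0.3 had 54.4 and 54.9, and those from 0.3 to 0.4 had 60.6 and 59.2. Peaks just inside the limit, from 0.35, had medians of 61.9 and 63 and those just outside, up to 0.45, had 67.9 and 66.3. The nearest recurrent peaks inside were at Cacna1s, the calcium channel of the muscle membrane (ratio 0.3999, signals 42 and 40), Rufy1 (107 and 91) and Rbpjl (86 and 68). The nearest outside were at Smad6, an inhibitor of BMP signalling (signals 74 and 50, at the limit itself), Apold1 (37 and 29) and Nmur1 (69 and 50). Both sides of the limit hold strong and weak peaks.

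**Figure D1:**
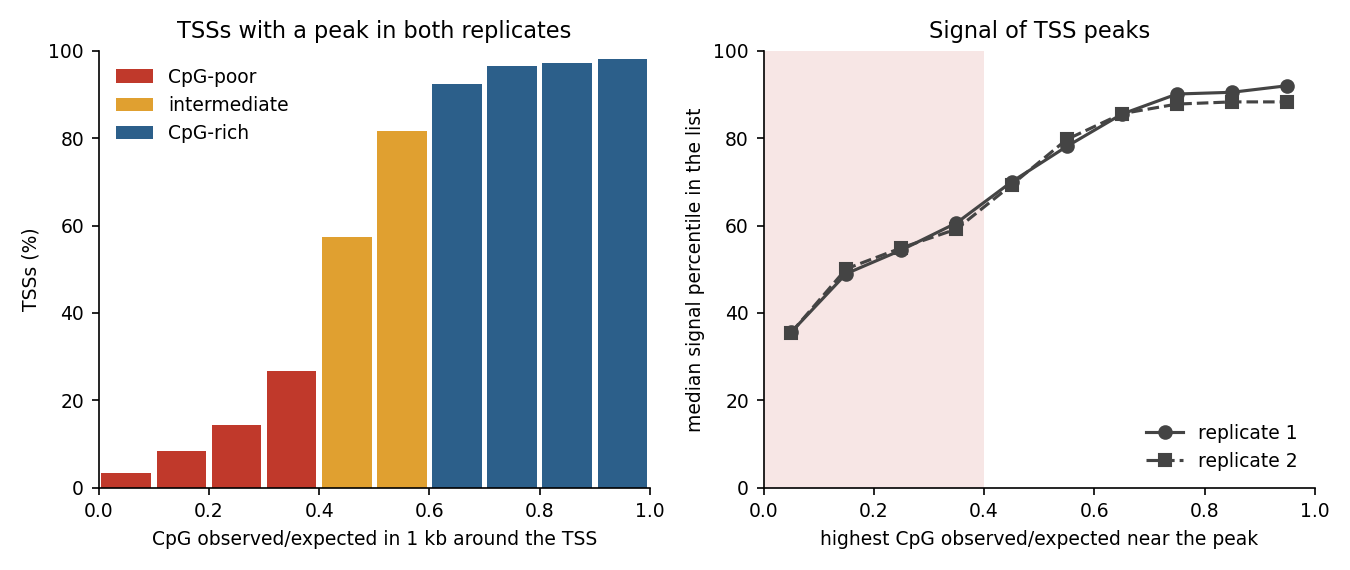
Left, percentage of annotated TSSs of protein-coding genes with a peak centred within 500 bp in both replicates, by the ratio of observed to expected CpG around the TSS in steps of 0.1, with ratios up to 1 shown and bars coloured by class. Right, median signal percentile of TSS peaks by the highest ratio near the peak, with the CpG-poor range shaded; the bars climb from 3.31% in the lowest step to 98.1% in the highest, and both replicates follow nearly the same curve.

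Few CpG-poor starts were open. A peak was centred within 500 bp in both replicates at 6235 of 45073 CpG-poor TSSs (13.8%, 95% Wilson interval 13.5 to 14.2), against 69.9% of 12244 intermediate and 95.9% of 36145 CpG-rich ones. Peaks of any class counted here. Neighbouring starts can share a peak, which the interval leaves out of account. The share was 3.31% below a ratio of 0.1, 8.46% from 0.1 to 0.2, 14.4% from 0.2 to 0.3 and 26.8% from 0.3 to 0.4, and 57.3% in the next step. Counted by gene, 1260 of the 7466 genes whose every TSS is CpG-poor had a TSS peak in both replicates (16.9%, 16.0 to 17.7), beside 66.3% of all 21938 protein-coding genes. A further 254 of these genes had one in replicate 1 only and 205 in replicate 2 only. Without the sensory receptor genes, an alternative chosen after the data were seen, the share was 20.8%.

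The peaks lay at genes with only CpG-poor starts and at CpG-poor starts of other genes. In replicate 1, 2126 members (41.7%) had as nearest start one of a gene with only CpG-poor TSSs, and 2373 (46.5%) one of a gene with a CpG-rich TSS elsewhere. In replicate 2 these were 2077 (43.0%) and 2200 (45.5%). Members of the first kind had median percentiles of 56.1 and 57.1, those of the second 52.7 and 52.6. Their nearest start belonged to the basic annotation in 70.1% and 69.2% of cases in genes with only CpG-poor TSSs, against 24.8% and 24.5% where the gene has a CpG-rich TSS elsewhere. A protein-coding transcript began at the nearest start of 58.6% and 59.6% of all members, against 76.5% and 76.7% of CpG-rich peaks. For the other 2112 and 1952 members that start began only transcripts of other types of a protein-coding gene. The 4 strongest members at a CpG-poor start of a gene with a CpG-rich one were at Ephb3, Kdm2a, Ptpa and Gli2. Gli2, a zinc finger factor of Hedgehog signalling, had signals of 120 and 112 at a start with a ratio of 0.20, while its highest ratio elsewhere is 0.70.

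The centres of the members clustered just before the start but less tightly than at other promoters. In replicate 1, 61.1% were upstream of their nearest TSS, and in replicate 2 61.4% (mean 61.3 ± 0.201, SD, n = 2), against 56.4 ± 1.69 at intermediate and 58.2 ± 0.196 at CpG-rich promoters. The median centre was at -36.5 and -37.0 bp from the start at CpG-poor and at -17.0 and -18 bp at CpG-rich promoters, a gap of about 1 step of the grid. Within 100 bp of the start lay 42.0% and 41.4% of the members, against 51.2% and 50.8% of the CpG-rich peaks. A single member rarely served starts on both strands: 0.53% and 0.765% did, against 8.19% and 8.64% of the CpG-rich peaks.

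**Figure D2:**
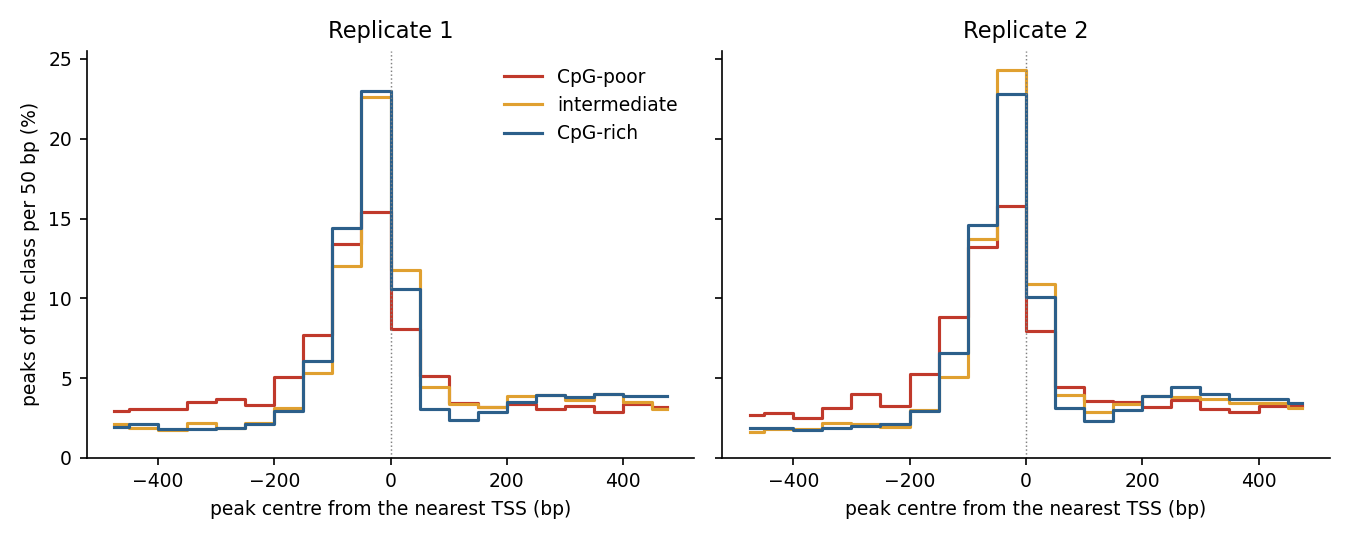
Position of peak centres around the nearest TSS for each replicate, as the percentage of the peaks of a class in each 50 bp bin, with negative distances upstream. The CpG-poor curve has a lower summit just before the start and a higher floor upstream than the CpG-rich one.

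Recurrent peaks are those that share 50% or more of their length with a peak called in the second library. Of the 5098 CpG-poor promoters in replicate 1, 3344 recurred (65.6%, 95% Wilson interval 64.3 to 66.9), as did 3349 of 4835 in replicate 2 (69.3%, 68.0 to 70.6), beside 72.4% and 74.5% of all TSS peaks. CpG-rich peaks recurred in 74.9% and 75.6% of cases, intermediate ones in 69.0% and 75.5%. The means were 67.4 ± 2.6% for CpG-poor, 72.2 ± 4.63% for intermediate and 75.3 ± 0.439% for CpG-rich peaks (SD, n = 2). The 2 shares of a class are not independent, since they count nearly the same overlaps from each side (3344 and 3349 CpG-poor peaks). Their SD thus mainly reflects the lengths of the 2 lists and is no measure of variation between replicates. In each replicate CpG-poor peaks had the lowest share of the 3 classes. Among all peaks, most of them not TSS peaks, 61.2% and 65.0% recurred.

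At equal signal the order turned round. In the fifth decile of signal of replicate 1, 337 of 573 CpG-poor peaks recurred (58.8%, 54.7 to 62.8), against 43.5% of intermediate and 29.7% of CpG-rich peaks (26.7 to 32.8), and 56.6% of all peaks of that decile. In the sixth decile of replicate 2, 465 of 598 recurred (77.8%, 74.3 to 80.9), against 65.1%, 54.1% (51.6 to 56.6) and 73.7%. These deciles are shown because they had the largest gap between CpG-poor and CpG-rich peaks in their replicate, 29.1 and 23.7 points. The smallest gap of replicate 1 was 2.4 points, in the top decile. CpG-poor peaks had the higher share than CpG-rich ones in 10 of 10 deciles of replicate 1 and in 9 of 10 of replicate 2, where the lowest decile had 18.3% against 21.6%. In the top decile nearly every member recurred, 98.8% and 99.2%, against 96.4% and 95.9% of the CpG-rich peaks. The CpG-poor shares stayed within 4.1 percentage points of those of all peaks in every decile of both replicates, and the CpG-rich ones lay below both except in the lowest decile of replicate 2.

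**Figure D3:**
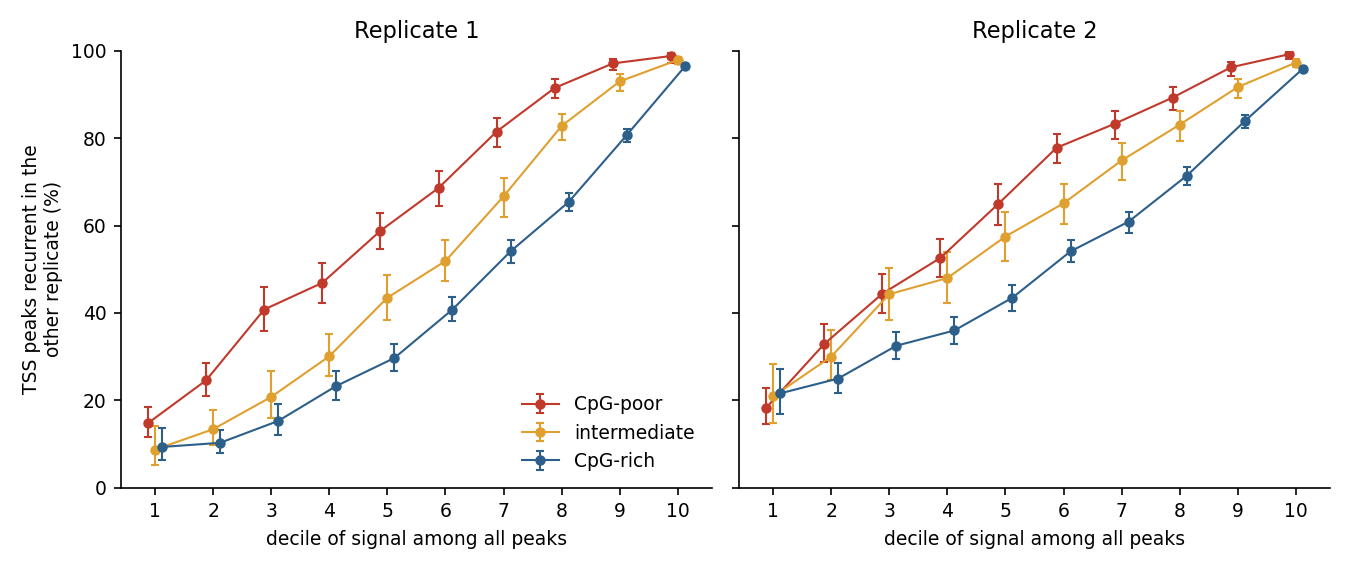
Percentage of TSS peaks recurrent in the other replicate by decile of signal among all peaks of the list, for the 3 CpG classes; bars are 95% Wilson intervals, which cover sampling of peaks and not variation between embryos. The CpG-poor points lie above the CpG-rich points in all deciles but the lowest of replicate 2.

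Crowding differed between the classes, and in replicate 2 the order at equal signal changed with the definition of recurrence. CpG-poor peaks had another peak of the same list within 300 bp in 18.5% and 18.2% of cases, CpG-rich ones in 22.0% and 25.4%. Among peaks without such a neighbour in deciles 4 to 8, 72.9% and 78.3% of the CpG-poor peaks recurred, against 52.3% and 60.2% of the CpG-rich ones. Among peaks with such a neighbour in these deciles the shares were 59.5% and 56.7%, against 40.9% and 47.9%. When a peak had only to touch a hotspot of the other replicate, the shares in the same deciles were 80.3% for CpG-poor and 74.5% for CpG-rich peaks of replicate 1, but 86.2% for CpG-poor and 97.2% for CpG-rich peaks of replicate 2. The order at equal signal thus concerns the 150 bp position of the peak in both lists, and for the open region around it the replicates differed in direction.

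Of the 3344 recurrent members of replicate 1, 3304 have a partner that is itself a CpG-poor promoter of replicate 2. They lay at 3306 separate places, and 32.7% had identical coordinates in both lists. Their signals had medians of 55 and 39, and their order in the lists had a Spearman rho of 0.856 over 3344 peaks, which share their libraries. The percentile of a recurrent CpG-poor promoter differed between the replicates by a median of 6.93 points, against 1.77 points for CpG-rich ones, which crowd at the top of the scale.

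The recurrent members have a TSS of 2616 genes within 500 bp, 15.7% of the 16693 genes with at least 1 CpG-poor TSS. A further 182 genes had such a peak in both replicates without meeting that rule, 668 in replicate 1 only and 548 in replicate 2 only. Another 6656 had TSS peaks that were all in the other classes, and 6023 had none. Plec, which encodes the cytoskeletal linker plectin, had 7 recurrent CpG-poor promoter peaks, as had Zfp65, a zinc finger gene with signals of 115 and 92 at the strongest. Ddr1, a collagen receptor, had 6, the strongest at 80 and 82.

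Matrix genes had the highest share and the strongest CpG-poor promoters of the 10 gene lists examined. Of 60 genes of connective tissue, cartilage and bone matrix with a CpG-poor TSS, 27 had a recurrent peak there (45%, beside 15.7% of all genes), and their strongest peaks had a median mean percentile of 84.6, beside 70.3 over all 2616 genes. Ogn, the leucine-rich proteoglycan osteoglycin, had signals of 109 and 96. Sparc, a collagen-binding matrix protein, had 102 in both. Col5a2 and Col3a1, fibrillar collagens, had 106 and 93, and 113 and 84. Others were chosen after their values were seen: Col1a1, the main collagen of bone and tendon, had 102 and 87, Dcn, the collagen-binding decorin, 97 and 81, Eln, elastin, 89 and 71, and Mgp, an inhibitor of mineralisation, 86 and 68. Low values in the list belonged to genes of cartilage, bone and tendon, with Ibsp at 37 and 16, Epyc at 28 and 22, and Tnmd at 30 and 19. Bglap, the osteocalcin gene of mature osteoblasts, and Cnmd, chondromodulin of cartilage, were among 8 without any TSS peak. Of the fibrillar and associated collagens, Col2a1 of cartilage had a CpG-poor promoter peak in replicate 1 only (signal 58) and Col1a2 in replicate 2 only (signal 28). Col2a1 also has a CpG-rich TSS, with a ratio of 0.665.

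In skeletal muscle, 23 of 62 genes with a CpG-poor TSS had a recurrent peak there (37.1%), with a median percentile of 64.6. Tpm2, a tropomyosin of the thin filament, led with 106 and 59 at a peak centred at -482 bp from its nearest start. Eno3, the enolase of muscle, had 74 and 62, Cav3, the caveolin of muscle, 75 and 58, and Myog, the factor that drives myoblast differentiation, 69 and 56. Receptor subunits of the neuromuscular synapse, named after their values were seen, were lower than these, with Chrng at 60 and 49, Chrnd at 60 and 41 and Chrna1 at 45 and 34. Sarcomere genes other than Tpm2 with a recurrent peak, also named after their values were seen, were spread widely, with Tnnt1 at 65 and 48, Myl4 at 71 and 38, Mylpf at 56 and 35, Ttn at 58 and 29, Neb at 38 and 37 and Acta1 at 31 and 33. The mean percentile of the 23 genes ran between 23.6 at Casq2, a calcium-binding protein, and 90.3 at Tpm2. Ampd1 and Atp2a1, the adenosine monophosphate deaminase and the calcium pump of muscle fibres, were among 16 genes without a TSS peak. Sarcomere genes were among these 16 too, such as Tnnt3, Tnni2, Tnnc1, Myl1, Tcap and Myh4. Tnnc2, Myh3 and Myh7 had a CpG-poor promoter peak in replicate 1 only. The replicates differed here: 39 genes had a CpG-poor promoter peak in replicate 1 and 29 in replicate 2, with 11 in replicate 1 only against 1 (Myh1) in replicate 2 only. Over all genes the numbers were 3466 and 3326.

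Epidermal genes had 18 of 55 recurrent (32.7%), with a median percentile of 61.7. Cldn4, a tight junction protein, had 83 and 69, and Lamb3, a laminin chain of the basement membrane, 81 and 60. The Lamb3 peak lies nearer to a TSS of the neighbouring gene G0s2, 86 bp from its centre, than to one of Lamb3. Sfn, the 14-3-3 sigma protein of keratinocytes, had 67 and 60. The keratins with a recurrent peak, named after their values were seen, were weaker: Krt5 of the basal layer had 41 and 38, Krt15 34 and 28 and Krt17 36 and 26. Krt6a, Krt8, Krt13, Krt16 and Krt77 had no TSS peak. Krt1 had a CpG-poor promoter peak in replicate 1 only, and Krt10 had TSS peaks of the other classes only. Krt14, the partner of Krt5, had a peak in each replicate (27 and 29) that did not meet the rule for recurrence. Cnfn and Dmkn, both of the outer layers, were among 15 without a TSS peak. The hair keratin-associated and late cornified envelope genes, which act in mature hair and the outermost skin, had no recurrent CpG-poor promoter among 92, and 3 (Krtap2-4, Krtap5-5 and Sprr1a) had a peak in replicate 1 only.

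In the endothelium and vessel wall list 12 of 31 genes were recurrent (38.7%, median percentile 70.3). Clec14a, a membrane lectin of endothelium, had 95 and 80, and Lmod1, the leiomodin of smooth muscle, 93 and 68. The smooth muscle actin gene Acta2 had 69 and 58 and the smooth muscle myosin gene Myh11 68 and 53. Actg2, the actin of visceral smooth muscle, and Lyve1, a lymphatic hyaluronan receptor, were without a TSS peak in either replicate, together with 4 others. Schwann cell and melanocyte genes had 6 of 18 (33.3%) at a lower median percentile of 44.6, led by S100b (68 and 62) and Fabp7 (61 and 40), both expressed in glia. Pmp22, a protein of peripheral myelin, had 36 and 21 at its CpG-poor start, and Mag, also of myelin, had no TSS peak.

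The lists of blood cells, of other organs and of sensory receptors had shares below the 15.7% of all genes with a CpG-poor TSS, by little in the list of heart, gut, lung and pancreas. Blood and immune genes had 7 of 65 recurrent (10.8%), led by Rhd, the Rh antigen of red cells (80 and 49), Cd68 of macrophages (64 and 34), Epor (48 and 42) and S100a8 of neutrophils (47 and 26), and 47 had no TSS peak, among them Adgre1 of macrophages and Alas2 of red cell precursors. The liver list had 1 of 30 (3.33%), C3 of complement, at 40 and 17, with none at Afp and Ahsg, the fetal serum proteins. Heart, gut, lung and pancreas genes had 5 of 35 (14.3%). These were Cela1, an elastase, at 87 and 57, the cardiac troponins Tnni3 at 78 and 46 and Tnnt2 at 60 and 51, the natriuretic peptide gene Nppb at 61 and 34, and Ins2 at 33 and 32, while Amy2a1 and Cela2a of the exocrine pancreas had no peak. Sensory receptor genes had 18 of 1514 (1.19%), with Olfr957 at 67 and 67, Olfr156 at 73 and 49, Olfr1033 at 62 and 38 and Olfr1507 at 50 and 44. The lists describe whole limb tissue, and which cells carry a given peak was not tested.

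**Figure D4:**
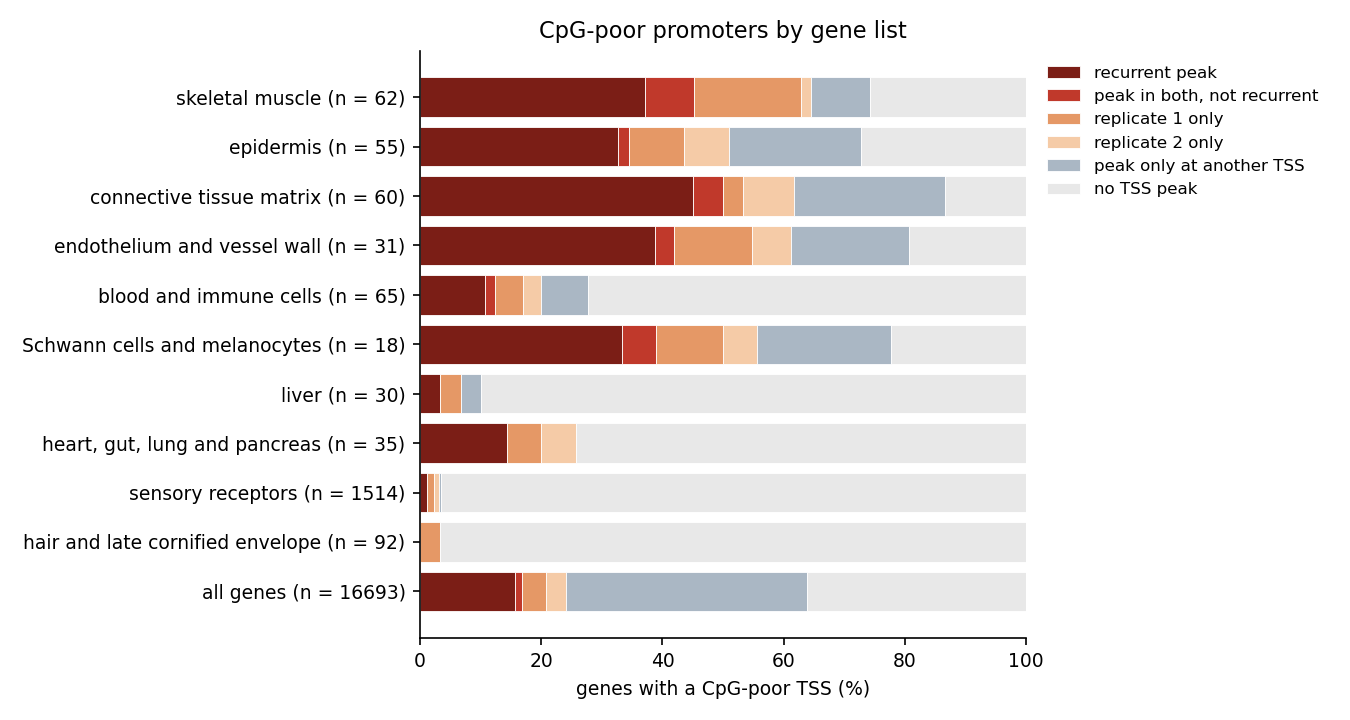
Genes of each list with at least 1 CpG-poor TSS, divided by where CpG-poor promoter peaks were found; n is the number of such genes. Recurrent peaks (darkest) range from 45% in the matrix list to none in the hair and cornified envelope list, with all genes in the lowest bar.

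**Figure D5:**
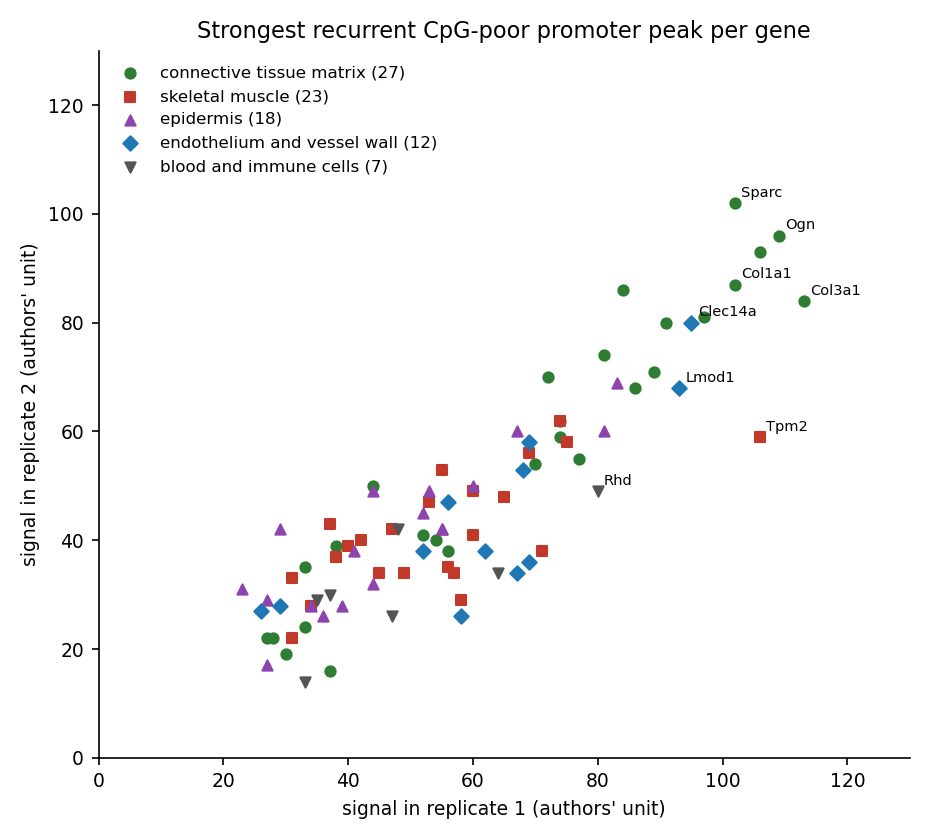
Signal of the strongest recurrent CpG-poor promoter peak of each gene in replicate 1 (x) and replicate 2 (y), in the authors' unit, for 5 gene lists with their numbers of genes. The points furthest to the upper right are matrix genes, and Tpm2 is at 106 and 59 (percentiles 94.4 and 86.2); signals of the replicates are not on a known common scale.

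Within the lists the recurrent peaks were not ranked alike in both libraries. The percentile of the strongest peak was higher in replicate 1 for 1320 and in replicate 2 for 1296 of all 2616 genes. In the matrix list it was higher in replicate 1 for 7 and in replicate 2 for 20 genes, in the epidermis list for 4 and 14 and in the muscle list for 8 and 15. The median difference, replicate 1 minus replicate 2, was -2.21, -7.01 and -4.23 percentile points in these lists, against 0.0566 over all genes. Vessel genes were split evenly, 6 and 6. The difference between 2 libraries has no replicate of its own and no test.

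The strongest CpG-poor promoter peaks outside every hotspot of the other replicate were at Msh4, a meiotic mismatch repair gene (67), Zmynd8 (63) and Myo18a (61) in replicate 1, at percentiles of 78.8, 76.0 and 74.5. In replicate 2 they were at Mroh2a (48), Chn2 (47) and Vangl1, a planar polarity gene (47), at percentiles of 77.8, 76.8 and 76.8. Zmynd8, Myo18a and Chn2 had other CpG-poor promoter peaks that recurred.

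In base content and in the share of several motifs the members differed from CpG-rich promoters. The 150 bp peaks of CpG-poor promoters had a median GC content of 52.7% and 53.3%, against 65.3% in both replicates at CpG-rich promoters and 49.3% over all peaks, and a median of 3 CpGs against 13. This much follows in part from the rule, since the peaks lie inside or beside the windows that set the class. Motifs were searched as fixed letters on both strands, and the part of base content in their shares was not tested: TATAAA or TATATA (the TATA box), CCAAT (the site NF-Y binds), GGGCGG (GC box), CCACCC (the CACC box), TGACTCA or TGAGTCA (AP-1), CAGCTG (E-box), TGACGTCA (CRE), CCGGAAGT (ETS site), AGGAAG (ETS core), AGATAA or TGATAA (bound by GATA factors), TGTGGT (RUNX), ACAATG or ACAAAG (SOX), GGAATG (TEAD), GCCNNNGGC (AP-2), TAATTA (homeodomain), ATTTGCAT (octamer), and, by name, the MEF2-like site, the NRF1 site, the CTCF core, the CArG box and a p63 site pair. The ETS site holds no ETS core, and the AP-1 words overlap an E-box where they share letters, as in the promoter of Cd68.

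The GC box, the ETS site and the AP-2 word were rarer in recurrent CpG-poor promoters than in CpG-rich ones, and the E-box and the CTCF core were more frequent. The words of the GC box and the ETS site each hold a CpG, so that their lower shares follow in part from the rule. The GC box, bound by SP and KLF factors, was in 14.5% of the 3344 CpG-poor peaks, against 41.1% of 3412 intermediate, 54.6% of 15478 CpG-rich and 6.01% of 99000 distal peaks over 1 kb from any protein-coding TSS. The full ETS site was in 0.538%, against 5.30% of CpG-rich peaks, and the AP-2 word in 8.85%, against 18%. The CACC box was in 19.1% of CpG-poor, 20.5% of CpG-rich and 11.4% of distal peaks, and the TATA box in 6.28%, 2.39% and 9.81% of them. The CCAAT box, bound by NF-Y, was in 20.5% of CpG-poor, 23.6% of CpG-rich and 19.6% of distal peaks. The CAGCTG E-box of bHLH factors was in 21.9% of CpG-poor, 7.79% of CpG-rich and 20% of distal peaks. RUNX, SOX, TEAD and GATA words were in 10.8%, 15.0%, 12.3% and 6.28% of CpG-poor peaks, against 4.24%, 8.11%, 5.36% and 2.45% of CpG-rich ones. Distal peaks had higher shares of these 4 words than CpG-poor promoters, at 12.4%, 17.8%, 13.5% and 8.46%. The CTCF core was in 3.56% of CpG-poor, 0.42% of CpG-rich and 4.45% of distal peaks.

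Motifs also went with signal among the members. Recurrent members with a CTCF core (119 peaks) had a median mean percentile of 84.1, against 66.3 without, and those with a GC box (486) had 77.3 against 65.4. Those with a TATA box (210) had 58.2 against 67.6, and those with a GATA word (210) 57.6 against 67.6. The CTCF core was in 3.56% of recurrent members and in 0.627% of the 1754 members of replicate 1 that did not recur, and the GC box in 14.5% and 6.9%. In the muscle list, 14 of 31 recurrent member peaks held the CAGCTG E-box, the word that MyoD family factors bind (45.2%, beside 21.9% of all recurrent members), as the Tpm2 stretch shows. The word was also in 5 of the 7 of the blood list (71.4%). The MEF2-like site was in 1 of the 31 of the muscle list (3.23%), near the 2.48% of all recurrent members. In the epidermis list 5 of 22 held an AP-1 word (22.7%, beside 4.16%), as the Cldn4 stretch does. A TATA box was in 7 of 34 of the matrix list (20.6%, beside 6.28%), and the vessel, muscle, blood and epidermis lists had 20%, 16.1%, 14.3% and 13.6%. Other words were below the share of all recurrent members. In the matrix list the SOX and RUNX words were each in 3 of 34 (8.82%, beside 15.0% and 10.8%). In the epidermis list 0 of 22 held a RUNX word. The p63 site pair was in 0 of all 3344 recurrent members and in only 16 of 127632 recurrent peaks of any kind (0.0125%). That pattern is too rare in all peaks for its count here to be read as a lack. In the vessel list 5 of 15 held a TEAD word (33.3%, beside 12.3%, with 25.8% in the muscle list) and 2 of 15 a CArG box (13.3%, beside 0.837%). These lists are short, and each count is a description without a test.

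A TATA word in its textbook place was uncommon in all classes. TATAAA or TATATA on the strand of the gene, in the 40 bp before a TSS within 500 bp, was found at 111 of 3344 recurrent CpG-poor peaks (3.32%, 95% Wilson interval 2.76 to 3.98), against 70 of 3412 intermediate (2.05%, 1.63 to 2.58) and 318 of 15478 CpG-rich ones (2.05%, 1.84 to 2.29). Per start, 2.36% of the 6235 CpG-poor TSSs open in both replicates had it, against 3.58% of the 36208 with no peak in either. CpG-rich starts had 0.905% where open in both and 1.69% where closed. A match names letters, not a site in use.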

How the data were processed

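DNase-seq peaks and hotspots of 2 limb libraries were used as deposited, called in each library separately on the mm10 build per the labels. Each peak carries a signal that the authors scored as a whole number, in an unnamed unit, and each hotspot a deposited −log10 q-value capped at 100. For aligner, peak caller and signal scaling, the answer is: not given in the sources used here. Read depth is unknown, so intervals over reads cannot be had. Peaks on the autosomes, X and Y were kept, with 291 and 277 others set aside. TSSs are the 5′ ends of all transcripts of the 21938 protein-coding genes of GENCODE M21, and sequence came from the GRCm38 assembly, which holds the mm10 chromosomes.

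CpG classes, recurrence (at least 50% covered), percentiles (mean rank), hotspot values, gene states and motif matches were computed in Python 3.11 with numpy 2.4.6, pandas 2.3.3 and scipy 1.17.1, with functions tested on simulated data. Levels were compared across the libraries by rank; raw signals of both are given and plotted side by side as values of each list, since a common scale is not known. With 1 group of 2 replicates no test was made: shares carry 95% Wilson intervals, which cover sampling of peaks, starts or genes and not variation between embryos. Replicates were compared before means were taken and hold different peaks.

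Named genes followed a rule: the 12 highest by mean percentile, up to 4 recurrent and 2 closed members of each list, the strongest peaks outside the hotspots of the other replicate, the genes with the most recurrent peaks, those on each side of the 0.4 limit, and the 4 strongest at a CpG-poor start of a gene with a CpG-rich one. The members, gene lists and motifs were chosen with earlier results of these data known. Of the genes in the lists, only Tf did not match. A few genes and a sequence that the rule names are not reported here. The 14 alternative settings changed the overlap, the peaks kept, the TSSs, the distances, the ratio window and limit, the TATA word, the genes counted and the replicates used.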

Additional observations from a re-analysis of the deposited data

How the results depend on the processing

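The percentage of CpG-poor promoters that recur, 67.4% as the mean of both replicates, was 72.8% with an overlap of 1 bp, 76.4% with hotspots in place of peaks, 80% among the 50000 peaks of highest signal and 70.7% for peaks centred within 250 bp of a TSS. It was 66.5% to 68.8% under the other 6 alternatives run on it. The 50000 strongest peaks also left a mean of 1353.5 members per replicate and 978 genes with a recurrent member, against 4966.5 and 2616. A ratio limit of 0.3 left 3092 and 1699, and both alternatives keep fewer peaks by construction. With protein-coding transcripts only these counts were 3375 and 1855, and within 250 bp of a TSS 3404 and 2059. They were 4380.5 and 2351 with the ratio taken over 500 bp, and 6993.5 and 3581 with a limit of 0.5. The median percentile of 54.7 was 56.6 with protein-coding transcripts only, 58.4 within 250 bp, 51.7 with a limit of 0.3 and 59.2 with a limit of 0.5. The percentage centred upstream, 61.3%, was 61.8% with protein-coding transcripts only. TATAAA alone was found before 2.54% of recurrent members, against 3.32% with both words. The 16.9% of genes with only CpG-poor TSSs that were open in both replicates was 6.64% with the 50000 strongest peaks, 16.2% with protein-coding transcripts only, 14.3% within 250 bp, 14.8% with the ratio taken over 500 bp, 10.5% and 24.3% with limits of 0.3 and 0.5, and 20.8% without sensory receptor genes, the last chosen after seeing the data. With either replicate alone it was 19.6% to 20.3%, since a peak in 1 list was then enough. Signals from 1 replicate alone gave a median percentile of 54.4 to 54.9, an upstream share of 61.1% to 61.4%, a TATA share of 3.27% to 3.39% and 3326 to 3466 genes. These results are levels with no direction, but the order of the classes at equal signal did turn round in replicate 2 with hotspots in place of peaks, at 86.2% of CpG-poor and 97.2% of CpG-rich peaks in deciles 4 to 8; the cause was not tested. Depth is unknown, so a missing peak says only that none was called. No paired analysis was possible because there is 1 group, so that no groups of samples share replicate numbers; the CpG classes were compared within each library.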
